A study of Mus musculus with 9 samples.

Results

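The genes Atp2a2, Pln, Sln, Ryr2, Trdn, Jph2, Casq1, Casq2, Hrc and Slc8a1, which move and store calcium in the heart muscle cell, were followed in mouse hearts. They were chosen by name, with earlier results of these data known. The authors' annotated table holds 1 probe set with each of these 10 symbols, among 19760 probe sets with 1 symbol and 45037 tested. Hearts came from 9 male FVB mice aged 15 weeks, 3 of each genotype, with an array for every mouse. GlycoHi hearts expressed a phosphatase-deficient phosphofructokinase 2 (PFK2), GlycoLo hearts expressed a kinase-deficient PFK2, and wild-type (WT) hearts served as controls. PFK2 makes an activator of glycolysis through its kinase and removes it through its phosphatase. The sources used here do not give the promoter of either modified enzyme, the cells that express it or the number of founder lines. No label says that mice were pooled or given an agent.

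In heart muscle, calcium that enters through the surface membrane opens the ryanodine receptor, a release channel of the sarcoplasmic reticulum, and the released calcium starts contraction. Relaxation follows when a pump returns calcium to the reticulum and an exchanger moves the rest out of the cell in trade for sodium. Small membrane proteins brake the pump, and acidic proteins inside the reticulum hold the stored calcium near the release channel.

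All values are log2 summaries of a probe set by the robust multiarray average method (RMA), as the authors deposited them. Medians of the 9 arrays lay between 4.76 and 4.80, and correlations between arrays, taken across probe sets, between 0.994 and 0.997. The tissue label was checked with 7 ventricular muscle genes (Myh6, Myl2, Myl3, Tnni3, Tnnt2, Actn2 and Mybpc3): all 7 were found, the lowest at percentile 87.0. Their summed linear level ranged over 57762 to 59305 in GlycoHi, 57301 to 59419 in GlycoLo and 58432 to 60208 in WT. The brightest of the 7 weigh most in this sum, and the share of muscle cells was not tested. Of the 7, Myh6, the main myosin of the mouse ventricle, fell in GlycoHi against WT by 0.70 ± 0.10 (adjusted p = 0.00444), and the other 6 were not called. Its probe set read 9.45 to 10.37, below Myl2 (14.29 to 14.34), and other probe sets of Myh6 were not compared. Without overlap between GlycoHi and WT, 3 of the 7 were lower (8.49% of all probe sets) and 1, Mybpc3, was higher (9.68%). Between GlycoLo and WT 2 of the 7, Myh6 and Tnnt2, were lower without overlap (13.2% of all probe sets in either direction). None of the 7 was called in GlycoLo against WT. Mybpc3 read 12.79 to 12.91 in GlycoHi and 12.62 to 12.73 in WT. All 6 atrial genes read (Myl7, Myl4, Nppa, Bmp10, Dkk3 and Stard10) were found too, at percentiles 45.0 to 99.96. Their summed level was 14709 to 21860 in GlycoHi, 25933 to 27788 in GlycoLo and 20242 to 29134 in WT.

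Of the 10 genes, 2 changed by the test used here, limma's moderated test with Benjamini-Hochberg adjustment over all 45037 probe sets and a threshold of 0.05. Slc8a1, the sodium-calcium exchanger of the surface membrane, rose in GlycoHi against WT, and Casq1, the calsequestrin best known from fast skeletal muscle, rose in GlycoLo against WT. The window around the RefSeq transcription start of each of these 2 genes is shown because they are the 2 that passed; the capitals mark every match to 4 motifs searched on both strands. These were the E-box CANNTG, the GATA site AGATAA, the composite element TGATGNAA of the stress factors ATF4 and C/EBP, and the MEF2 site by its name. The windows hold 250 bases before and 50 after the start in build GRCm38.p6, Casq1 at chr1:172219846-172220145 and Slc8a1 at chr17:81738338-81738637, both on the minus strand.
Casq1: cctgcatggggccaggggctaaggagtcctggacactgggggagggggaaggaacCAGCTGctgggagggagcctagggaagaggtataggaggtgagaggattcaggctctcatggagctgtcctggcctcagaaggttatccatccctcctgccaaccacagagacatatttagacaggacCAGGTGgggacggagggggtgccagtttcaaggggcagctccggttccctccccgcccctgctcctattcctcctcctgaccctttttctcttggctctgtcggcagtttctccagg
Slc8a1: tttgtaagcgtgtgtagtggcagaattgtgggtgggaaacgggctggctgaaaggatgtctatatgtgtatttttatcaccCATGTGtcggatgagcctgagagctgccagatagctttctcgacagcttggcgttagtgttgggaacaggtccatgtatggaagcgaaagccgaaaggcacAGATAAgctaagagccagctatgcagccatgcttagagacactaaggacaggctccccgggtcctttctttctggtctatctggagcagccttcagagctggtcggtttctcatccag

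The Casq1 window held 2 E-boxes, beginning at bases -195 and -67 from the start. The Slc8a1 window held 1 E-box at -169 and 1 GATA match at -68. An E-box was present in 72.3% of all 32851 RefSeq promoter windows of this length, a GATA match in 11.2%, the composite element in 3.97% and a MEF2 match in 3.19%. Neither window held the last 2 motifs. The table had a window for 7 of the 10 genes, and in these 7 the composite element had no match, Casq2 alone held a MEF2 match (at -69), and Pln (at -183) and Slc8a1 held a GATA match. No measurement of binding was made, and these matches are descriptions of the letters only.

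**Figure D1:**
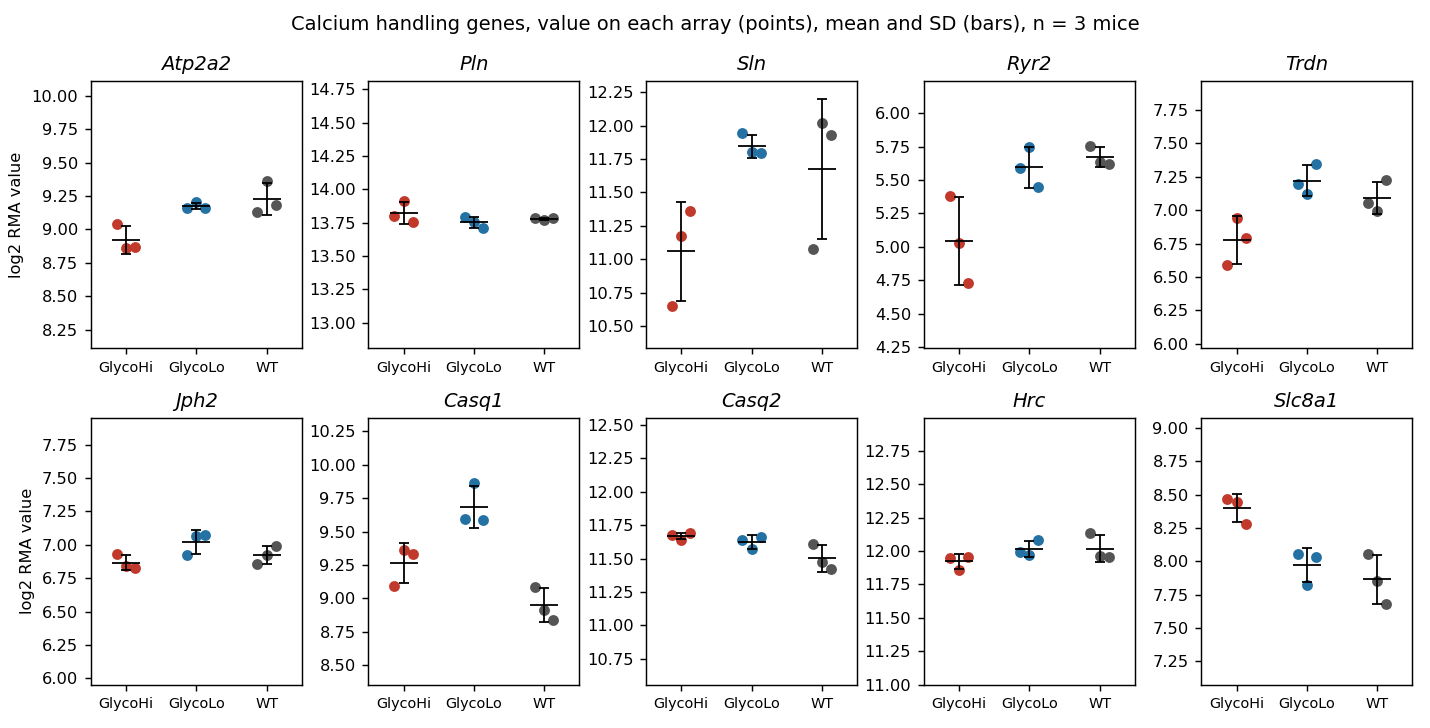
Log2 RMA values of the 10 calcium handling genes on each array (points), with the mean and SD (bars, n = 3 mice), by genotype; every panel spans the same height on the log2 scale. Slc8a1 was highest in GlycoHi (8.28 to 8.47), Casq1 was highest in GlycoLo (9.59 to 9.86), and Ryr2 was lowest in GlycoHi (4.73 to 5.38).

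In GlycoHi against WT, 1 of the 10 genes was called (Slc8a1, higher), where 2.08% of all probe sets were called in either direction and 1.08% as higher. In GlycoLo against WT, 1 of 10 was called (Casq1, higher), against 0.0844% of all probe sets in either direction and 0.0155% as higher. None of the 10 was called in GlycoHi against GlycoLo, where 1.71% of all probe sets were. By limma's unadjusted p under 0.05, 7 of the 10 passed in GlycoHi against WT (14.5% of all probe sets), 3 of them higher (7.45%) and 4 lower (7.07%). In GlycoHi against GlycoLo 7 passed (12.9%), 1 higher (6.41%) and 6 lower (6.47%). In GlycoLo against WT 1 passed, Casq1 (9.48%, or 4.41% as higher). The median log2 difference over the 10 genes was -0.08 in GlycoHi against WT, 0.10 in GlycoLo against WT and -0.20 in GlycoHi against GlycoLo, with medians over all probe sets of 0.00, 0.01 and -0.00. The size of the difference, regardless of sign, had a median of 0.31, 0.10 and 0.34 over the 10 genes in these comparisons, and of 0.08, 0.08 and 0.08 over all probe sets. The 10 genes lay at percentile 49.2 or higher of every array, while the shares and medians over all probe sets include dimmer sets. With dim probe sets left out, 23090 remained. Of these, 1663, 128 and 1299 were called in the same order of comparisons, and 3, 1 and 3 of the 10 genes. The part of signal level in these contrasts was not tested. The 3 comparisons share arrays pairwise, so their values for a gene are not independent. Because the genes were chosen with earlier results of these data known, the counts beside the shares over all probe sets are descriptions only.

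**Figure D2:**
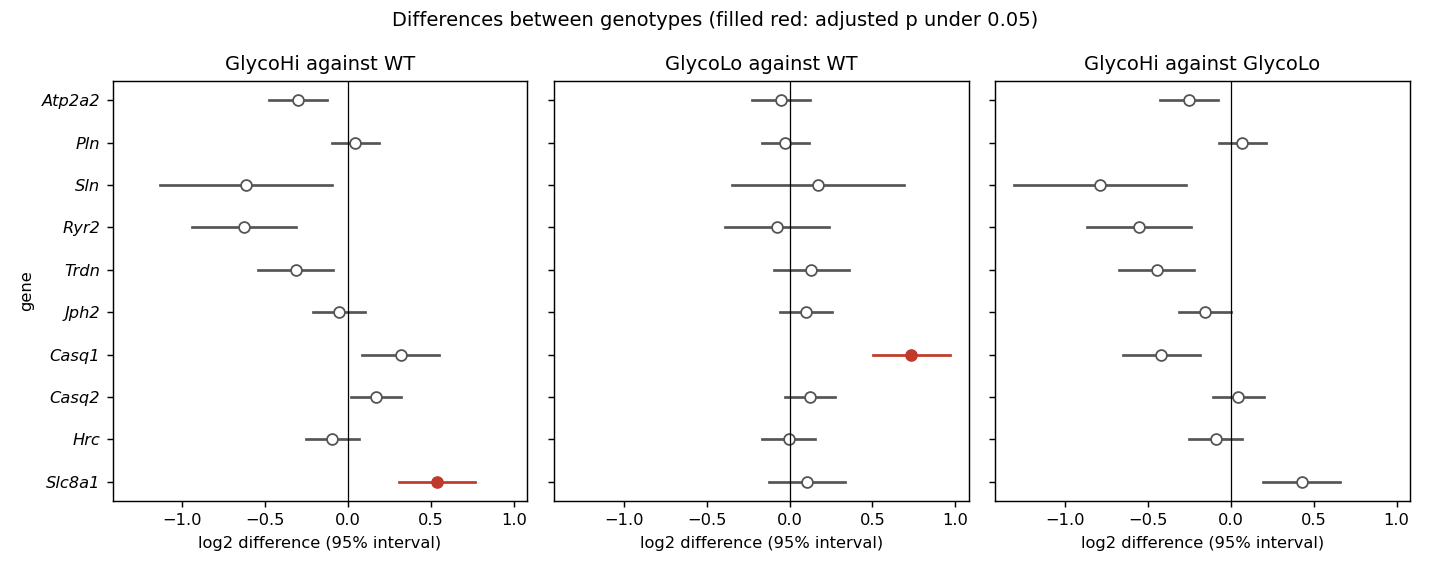
Log2 difference of each gene (points) with its 95% interval from the moderated fit (lines), for GlycoHi against WT, GlycoLo against WT and GlycoHi against GlycoLo. Filled red points mark the 2 called differences, Slc8a1 at 0.53 in GlycoHi and Casq1 at 0.73 in GlycoLo; Atp2a2, Sln, Ryr2 and Trdn lie below 0 in both panels that involve GlycoHi.

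Return of calcium to the reticulum was represented by 3 genes. Atp2a2 encodes the calcium pump of the cardiac reticulum. Its values were 9.04, 8.86 and 8.87 in GlycoHi, 9.16, 9.20 and 9.16 in GlycoLo, and 9.13, 9.37 and 9.18 in WT. Every GlycoHi heart was below every heart of the other 2 groups, while GlycoLo lay within the WT range. The difference in GlycoHi against WT was -0.30 ± 0.08 (SE), or 0.810-fold with a 95% interval of 0.717 to 0.915, and was not called by limma (adjusted p = 0.0898). It was -0.25 ± 0.08 in GlycoHi against GlycoLo (adjusted p = 0.186) and -0.05 ± 0.08 in GlycoLo against WT (adjusted p = 0.875). In bulk hearts, fewer muscle cells and less RNA of a gene per muscle cell cannot be told apart. Atp2a2 passed in GlycoHi against WT at an adjusted p = 0.0392 with dim probe sets left out and at an adjusted p = 0.0189 with a trended and robust variance.

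Pln encodes phospholamban, the main brake of the pump in ventricular muscle, which lets go when it is phosphorylated. It varied least of the 10 genes, with an SD of 0.05 within groups (0.11 for the median probe set). It averaged 13.82 ± 0.08 in GlycoHi, 13.75 ± 0.04 in GlycoLo and 13.78 ± 0.01 in WT (SD, n = 3), and all 3 groups overlapped. The 95% interval of its difference ran from -0.10 to 0.18 in GlycoHi against WT, from -0.17 to 0.12 in GlycoLo against WT and from -0.07 to 0.21 in GlycoHi against GlycoLo. The probe set lay at percentile 99.9 or higher of every array, and no saturation flag was at hand.

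Sln encodes sarcolipin, a second brake of the pump, which in the mouse heart is made mainly in the atria. Its values were 10.65, 11.17 and 11.36 in GlycoHi, 11.95, 11.80 and 11.79 in GlycoLo, and 11.07, 12.02 and 11.93 in WT. The GlycoHi hearts lay below all GlycoLo hearts but overlapped with WT, whose replicate 1 was low. The difference was -0.62 ± 0.23 in GlycoHi against WT (adjusted p = 0.248), -0.79 ± 0.23 in GlycoHi against GlycoLo (adjusted p = 0.159) and 0.17 ± 0.23 in GlycoLo against WT (adjusted p = 0.857). Sln had the widest spread of the 10 genes within groups (SD 0.37). Without WT replicate 1 the difference in GlycoHi was -0.92 against WT (adjusted p = 0.0372), the GlycoHi difference from GlycoLo also passed (adjusted p = 0.0430), and the GlycoLo difference from WT turned to -0.13. Without GlycoHi replicate 1 the difference in GlycoHi against WT was -0.41 (adjusted p = 0.527), and without WT replicate 2 it was -0.44 (adjusted p = 0.538).

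The atrial myosin light chains were read beside Sln. The mean of Myl7 and Myl4 was 11.48, 12.12 and 12.14 in GlycoHi, 12.68, 12.47 and 12.61 in GlycoLo, and 11.91, 12.59 and 12.56 in WT. WT replicate 1 and GlycoHi replicate 1 were the lowest of their groups in this mean as in Sln. Of the 6 atrial genes Dkk3 fell in GlycoHi against WT, by 0.74 ± 0.16 (adjusted p = 0.0392), and 5 were not called. Without overlap, 1 of the 6 was lower in GlycoHi against WT (8.49% of all probe sets) and 5 in GlycoHi against GlycoLo (8.01%). None was higher in either. The Dkk3 call was lost without WT or GlycoLo replicate 2 or 3 and without any single GlycoHi array. It was also lost with the replicate block, with only the 6 arrays compared and with an offset of 50 added on the linear scale. Its highest adjusted p, 0.127, came without GlycoHi replicate 2. Set against the light chains of the same array, a measure chosen after the values were seen, Sln stood at -0.86 ± 0.09 in GlycoHi, -0.74 ± 0.07 in GlycoLo and -0.68 ± 0.14 in WT (SD, n = 3). On this scale GlycoHi differed from WT by -0.18 (exact 2-sided permutation p = 0.3) and from GlycoLo by -0.12 (exact permutation p = 0.2), and GlycoLo differed from WT by -0.061 (exact permutation p = 0.5). With 3 mice in each group this test cannot give a p below 0.1. The scale rests on 2 of the 6 atrial genes. Differences of the 6 in GlycoHi against WT ranged from -0.74 to 0.01, so another pick of atrial genes would give another value for Sln.

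**Figure D3:**
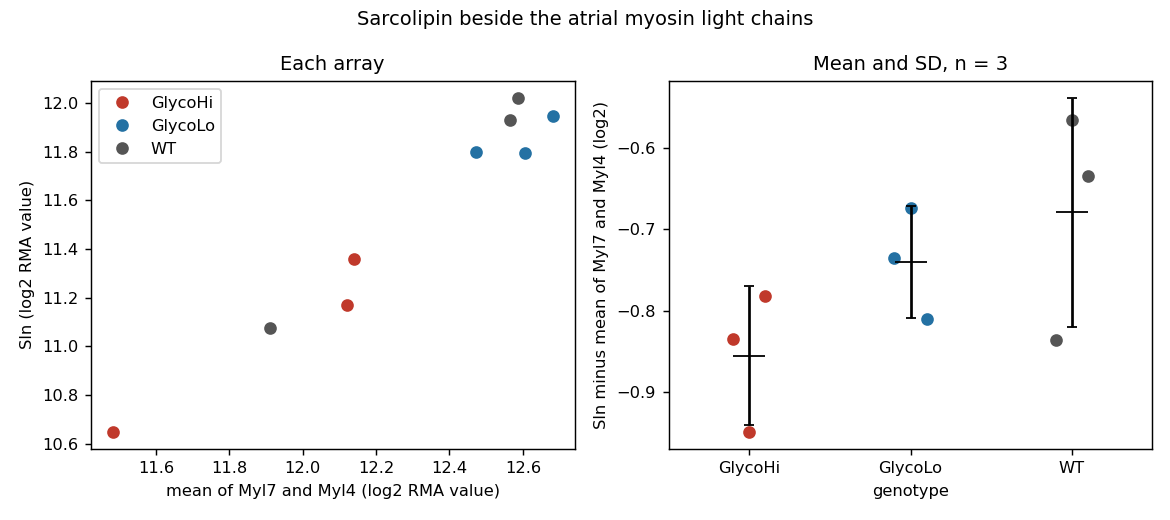
Left, Sln against the mean of the atrial light chains Myl7 and Myl4 on each of the 9 arrays (both log2 RMA values), by genotype. Right, the difference between them with mean and SD (n = 3), which averaged -0.86 in GlycoHi, -0.74 in GlycoLo and -0.68 in WT.

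Release of calcium was represented by the channel and 2 proteins of its junction. Ryr2 encodes the cardiac ryanodine receptor, the release channel itself. It had values of 5.38, 5.03 and 4.73 in GlycoHi, 5.59, 5.75 and 5.45 in GlycoLo, and 5.76, 5.64 and 5.62 in WT. The GlycoHi hearts were the 3 lowest of the 9 and the most widely spread, with an SD of 0.33 against 0.15 in GlycoLo and 0.08 in WT. The difference in GlycoHi against WT was -0.63 ± 0.14, or 0.647-fold (95% interval 0.521 to 0.804), and missed the threshold (adjusted p = 0.0508). In GlycoHi against GlycoLo it was -0.55 ± 0.14 (adjusted p = 0.0942), and in GlycoLo against WT -0.08 ± 0.14 (adjusted p = 0.902).

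The Ryr2 call was close to the line in both directions. In GlycoHi against WT it passed without GlycoHi replicate 1 (-0.79, adjusted p = 0.0113), with dim probe sets left out (adjusted p = 0.0275), with a trended and robust variance (adjusted p = 0.0186) and with the replicate number as a block (adjusted p = 0.0315). Over all alternatives its adjusted p ranged from 0.0113 to 0.140. This probe set is the dimmest of the 10, at percentiles 49.2 to 58.4 in GlycoHi, 59.3 to 63.1 in GlycoLo and 61.3 to 62.9 in WT. Adding an offset of 50 on the linear scale, which shrinks differences of dim probe sets, brought the GlycoHi difference from WT to -0.28 (adjusted p = 0.0663) and that from GlycoLo to -0.24 (adjusted p = 0.118). The difference from GlycoLo passed without GlycoHi replicate 1 (-0.72, adjusted p = 0.0184) and with a trended and robust variance (adjusted p = 0.0413). In the authors' deposited table the difference of Ryr2 in GlycoHi minus WT is -0.628 with an adjusted p of 0.0509.

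Trdn encodes triadin, which links the release channel to calsequestrin. Its values were 6.59, 6.94 and 6.79 in GlycoHi, 7.20, 7.12 and 7.35 in GlycoLo, and 7.05, 7.00 and 7.22 in WT. All GlycoHi hearts were below all hearts of both other groups. Trdn had the smallest adjusted p of the 10 genes in GlycoHi against GlycoLo, -0.45 ± 0.10 or 0.734-fold (95% interval 0.627 to 0.859; adjusted p = 0.0621), which was not called. Without GlycoHi replicate 2 it was -0.53 (adjusted p = 0.0491), and it also passed with dim probe sets left out and with a trended and robust variance (adjusted p = 0.0308 and 0.0189). Against WT, Trdn stood at -0.32 ± 0.10 in GlycoHi (adjusted p = 0.173) and at 0.13 ± 0.10 in GlycoLo (adjusted p = 0.727).

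Jph2 encodes junctophilin 2, which holds the reticulum close to the surface membrane. It ranged over 6.83 to 6.93 in GlycoHi, 6.92 to 7.08 in GlycoLo and 6.86 to 6.99 in WT, and the groups overlapped. Its difference was -0.06 ± 0.07 in GlycoHi against WT, 0.10 ± 0.07 in GlycoLo against WT and -0.16 ± 0.07 in GlycoHi against GlycoLo (adjusted p = 0.775, 0.701 and 0.388).

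Storage inside the reticulum was represented by the calsequestrins and a histidine-rich protein. Casq1 values were 9.59, 9.86 and 9.59 in GlycoLo, against 9.09, 8.91 and 8.84 in WT. In GlycoHi they were 9.09, 9.36 and 9.33. GlycoLo hearts were above all others, and GlycoHi hearts lay between the other groups without overlap, although GlycoHi replicate 1 exceeded WT replicate 1 by a margin that the second decimal does not show. Casq1 rose in GlycoLo against WT by 0.73 ± 0.10, or 1.66-fold (95% interval 1.42 to 1.95; adjusted p = 0.0384, and 0.00210 to 0.150 over the alternatives). The call was lost without any single WT or GlycoLo array, without GlycoHi replicate 2 or 3, with only the 6 arrays compared (adjusted p = 0.0937) and with the replicate number as a block (adjusted p = 0.0868); the difference itself stayed between 0.64 and 0.80.

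In GlycoHi, Casq1 stood at 0.32 ± 0.10 against WT (adjusted p = 0.181) and at -0.42 ± 0.10 against GlycoLo (adjusted p = 0.0877). The last comparison passed with dim probe sets left out (adjusted p = 0.0451) and with a trended and robust variance (adjusted p = 0.0181). Genes of fast skeletal muscle gave low signals: all 9 of the list (Myh1, Myh2, Myh4, Tnnt3, Tnni2, Tnnc2, Mylpf, Actn3 and Pvalb) were found and lay between percentiles 0.466 and 49.4, while Casq1 lay between 92.0 and 96.2. Their summed linear level was 102 to 111 in GlycoHi, 116 to 120 in GlycoLo and 111 to 117 in WT. One of them, Tnni2, was lower in GlycoHi than in GlycoLo by the test, and none was called against WT in either line. Without overlap, 3 of the 9 were higher in GlycoLo than in WT (6.90% of all probe sets) and 1 was lower. In GlycoHi against GlycoLo 6 of the 9 were lower without overlap (8.01%) and none was higher. In GlycoHi against WT all 9 overlapped. The part of such tissue in the Casq1 values was not tested.

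Markers of other cells were read as well, and some of their sums differed between the groups. The summed level of 5 of 6 macrophage markers was 1558 to 1869 in GlycoHi, 1496 to 1554 in GlycoLo and 1775 to 1842 in WT. For 3 brown adipocyte markers it was 291 to 317 in GlycoHi, 231 to 275 in GlycoLo and 365 to 497 in WT, and for 5 of 6 white adipocyte markers 385 to 454, 391 to 525 and 521 to 948 in the same groups. Both lines were thus below or at the lower edge of WT in the summed adipocyte markers. Single brown adipocyte genes differed in GlycoLo against WT by -0.80 to 0.17. For 3 of 4 erythroid markers it was 151 to 224 in GlycoHi, 142 to 250 in GlycoLo and 270 to 309 in WT. Smooth muscle (963 to 1072, 969 to 1490 and 1039 to 1332), fibroblast (7783 to 8436, 7485 to 8002 and 7902 to 8495) and endothelial markers (1664 to 1737, 1806 to 1853 and 1546 to 1933) overlapped with WT in both lines. Of all these, 1 gene was called against WT, the brown adipocyte gene Cidea, which fell in GlycoLo by 0.74 (adjusted p = 0.0200). The Cidea call was lost without WT replicate 1 or 3, without any single GlycoLo array and with only the 6 arrays compared. Its highest adjusted p, 0.114, came without GlycoLo replicate 2. The part of these cells in the values of Casq1 and Slc8a1 was not tested.

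Casq2 encodes the cardiac calsequestrin. It ranged over 11.64 to 11.69 in GlycoHi, 11.57 to 11.66 in GlycoLo and 11.42 to 11.61 in WT. GlycoHi hearts were above all WT hearts and overlapped with GlycoLo. The difference in GlycoHi against WT was 0.17 ± 0.07, or 1.12-fold (95% interval 1.01 to 1.25; adjusted p = 0.284), and that in GlycoLo was 0.12 ± 0.07 (adjusted p = 0.614). GlycoHi differed from GlycoLo by 0.05 ± 0.07 (adjusted p = 0.838). Its probe set carries the suffix that Affymetrix gives to sets whose probes can match more than 1 transcript, so its signal may not be from Casq2 alone.

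Hrc encodes the histidine-rich calcium binding protein, which binds stored calcium and triadin. It averaged 11.92 ± 0.05 in GlycoHi, 12.01 ± 0.06 in GlycoLo and 12.02 ± 0.10 in WT (SD, n = 3). GlycoHi hearts were just below all GlycoLo hearts (at most 11.96 against at least 11.97) and overlapped with WT. The differences were -0.10 ± 0.07 in GlycoHi against WT, -0.01 ± 0.07 in GlycoLo against WT and -0.09 ± 0.07 in GlycoHi against GlycoLo (adjusted p = 0.599, 0.989 and 0.651).

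Removal of calcium from the cell was represented by Slc8a1. Its values were 8.47, 8.45 and 8.28 in GlycoHi, against 8.06, 7.85 and 7.68 in WT. In GlycoLo they were 8.06, 7.82 and 8.03. The GlycoHi hearts were the 3 highest of the 9, and GlycoLo and WT overlapped. Slc8a1 rose in GlycoHi against WT by 0.53 ± 0.10, or 1.45-fold (95% interval 1.23 to 1.70; adjusted p = 0.0271, and 0.00424 to 0.101 over the alternatives). The call was lost without WT replicate 2 or 3, without replicate 1 or 2 of GlycoHi, where the adjusted p reached 0.101, and with only the 6 arrays compared (adjusted p = 0.0663). The difference stayed between 0.44 and 0.63. GlycoHi also stood above GlycoLo by 0.43 ± 0.10, or 1.34-fold, which was not called (adjusted p = 0.0786), but passed with dim probe sets left out (adjusted p = 0.0389) and with a trended and robust variance (adjusted p = 0.0193). The difference in GlycoLo against WT was 0.11 ± 0.10 (adjusted p = 0.789).

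By the order of group means, GlycoHi was lowest for 6 of the 10 genes (Atp2a2, Sln, Ryr2, Trdn, Jph2 and Hrc) and highest for 3 (Pln, Casq2 and Slc8a1). The group means spanned only 0.16 for Jph2, 0.10 for Hrc, 0.07 for Pln and 0.17 for Casq2. The share of such orders over all probe sets was not computed, so this order is a description only. Groups that did not overlap were counted as well. In GlycoHi against WT this held for 6 genes (18.2% of all probe sets), 3 lower in every heart (Atp2a2, Ryr2 and Trdn; 8.49%) and 3 higher (Casq1, Casq2 and Slc8a1; 9.68%). In GlycoHi against GlycoLo it held for 7 (16.8%), of which 6 were lower (Atp2a2, Sln, Ryr2, Trdn, Casq1 and Hrc; 8.01%) and 1, Slc8a1, was higher (8.76%). In GlycoLo against WT it held for Casq1 alone (13.2%, or 6.90% as higher). By 1 probe set each, the release channel, its partner triadin and the pump thus lay on the low side in every GlycoHi heart. The exchanger lay on the high side. Of these, only the difference of Slc8a1 from WT passed the adjusted test. Other probe sets of these genes were not compared, so whether the set read stands for the whole gene was not tested.

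The 3 genes whose profile over the 9 arrays lay closest to that of Slc8a1, among probe sets with 1 symbol, were Taf4b, Nhp2 and Trappc6a. Likeness was measured as the root mean square difference between centred log2 values and was 0.07, 0.07 and 0.08, against an SD of 0.27 for Slc8a1 itself. The closest to Casq1 were Pdlim7, Fry and Cyfip2 (0.16, 0.17 and 0.17, against an SD of 0.34). With 9 arrays and many genes such close profiles are a description only.

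Other genes of calcium handling were read from 7 lists, of which 79 genes were found with a symbol of their own. In GlycoHi against WT 1 rose, 0 fell and 78 were not called; in GlycoLo against WT none of the 79 was called by limma; and in GlycoHi against GlycoLo 1 was higher, 1 was lower and 77 were not called. The shares called over all probe sets were 2.08%, 0.0844% and 1.71% in these comparisons. Limma's unadjusted p was under 0.05 for 13 of the 79 in GlycoHi against WT (16.5%, with 14.5% over all probe sets), 13 in GlycoLo against WT (16.5%, with 9.48%) and 19 in GlycoHi against GlycoLo (24.1%, with 12.9%). The 79 genes had a median difference of -0.04 in GlycoHi against WT and 0.04 in GlycoLo against WT. Calcium entry and the dyad, the site where the surface membrane meets the reticulum, held 8 genes such as Cacna1c, the pore of the L-type channel (medians -0.08 in GlycoHi and 0.11 in GlycoLo). Partners of the release channel and lumenal proteins held 12 (-0.02 and 0.06). Tissue isoforms such as Atp2a1 and Ryr1 held 11 (-0.05 and 0.03), efflux pumps and store-operated entry 11 (-0.09 and -0.03), mitochondrial calcium 10 (0.07 and -0.01) and calcineurin signalling 10 (-0.05 and 0.05). In these 6 lists no gene was called against WT in either line.

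The list of 17 regulators of the pump and channel (medians -0.03 in GlycoHi and 0.06 in GlycoLo) held the 1 rise, Hax1. Its protein, HAX1, is known to bind phospholamban as well as to guard against cell death. Its values were 8.60, 8.50 and 8.45 in GlycoHi, 8.09, 8.11 and 8.24 in GlycoLo, and 8.11, 8.12 and 8.07 in WT. All GlycoHi hearts were above all others. Hax1 rose in GlycoHi against WT by 0.42 ± 0.07 (adjusted p = 0.0109) and was called there under every alternative run (adjusted p up to 0.0495). It was also higher in GlycoHi than in GlycoLo, by 0.37 ± 0.07 (adjusted p = 0.0239), a call lost when replicate 1 or 2 of either line was left out, where the adjusted p reached 0.0910, with the replicate block and with only the 6 arrays compared. The 1 lower gene was Rcan1, whose protein restrains the calcium-dependent phosphatase calcineurin. It had 6.97, 6.30 and 6.46 in GlycoHi, 7.21, 7.47 and 7.43 in GlycoLo and 6.83, 7.14 and 7.02 in WT, and differed between GlycoHi and GlycoLo by -0.79 ± 0.15 (adjusted p = 0.0298). The WT hearts lay between the lines and overlapped with GlycoHi, and Rcan1 was not called against WT in either line. Its call was lost when WT replicate 3, any single GlycoLo array, or GlycoHi 2 or 3 was left out, where the adjusted p reached 0.127. It was also lost with the replicate block (adjusted p = 0.0667) and with only the 6 arrays compared (adjusted p = 0.0833).

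**Figure D4:**
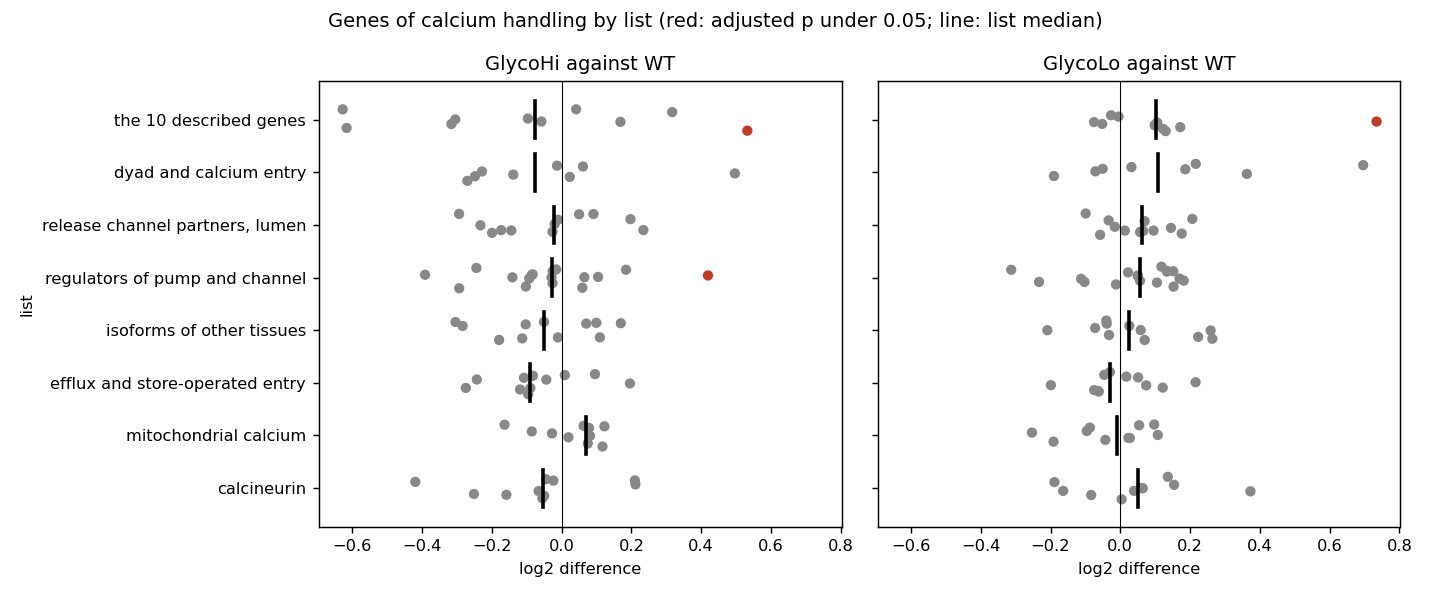
Log2 difference of each gene (points) in GlycoHi against WT and GlycoLo against WT, for the 10 genes described and for 7 lists of other calcium handling genes; vertical bars are list medians and red points are called. Besides Slc8a1 and Casq1, Hax1 at 0.42 in GlycoHi is the 1 red point among the 79 list genes.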

How the data were processed

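Biotin-labelled cRNA of 9 hearts was hybridised to Affymetrix arrays, per the labels. The values deposited are log2, and RMA and limma are named in the submitters' processing notes without versions. A deposited table adds symbols, log2 differences, p-values and an SD over arrays, which was not used; its values differ from the value table by at most 8.88e-16. Symbols name 1 probe set each, so other probe sets of a gene were not compared.

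After 64 control probe sets were left out, 45037 were fitted with limma 3.58.1 in R 4.3.3: 1 linear model of 3 genotypes over 9 arrays, moderated by eBayes (prior 4.66 and residual 6 degrees of freedom), and Benjamini-Hochberg adjustment over all probe sets. Alternatives were a block for the replicate number, a fit of just the 6 arrays compared, a filter on dim probe sets (highest group mean under the median of all values), cyclic loess, a common median, an offset of 50 on the linear scale, a trended and robust variance, an adjusted p under 0.1, and each array left out in turn. Errors of differences are SE and errors of levels are SD. The steps were tested on simulated data. Samples labelled as replicates are separate mice.

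The 10 genes, the gene lists and the tests were chosen with earlier results of these data known. All 10 genes are named, with the called genes of the lists and the 3 closest profiles of each called gene; called marker genes and the comparison of Sln with Myl7 and Myl4 were chosen after their values were seen. The 10 marker lists were: ventricular, atrial, skeletal muscle, smooth muscle, fibroblast, endothelial, white and brown adipocyte, macrophage and erythroid. The labels share replicate numbers between groups. Of 9 same-numbered pairs of arrays, 2 had deviations correlated above 0.1 (-0.02 to 0.12). Of 18 differently numbered pairs, 0 did (-0.11 to 0.06). This check did not settle whether the numbers mark pairs, and the main fit did not take them as pairs. The promoter table is RefSeq's for GRCm38.p6. No build is named for the array. The number of arrays sets the precision. Figures were drawn with matplotlib 3.10.9.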

Additional observations from a re-analysis of the deposited data

Results flagged for a closer look

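Among the pathway and marker lists read, 4 genes differed between the lines by the limma test of GlycoHi against GlycoLo itself, adjusted over all probe sets. Hax1 was higher in GlycoHi by 0.37 on the log2 scale (8.52 against 8.15 in GlycoLo, and 8.10 in WT). Rcan1 stood at -0.79 (6.58 in GlycoHi and 7.37 in GlycoLo, with 7.00 in WT). Myh6, the fast myosin of the mouse ventricle, stood at -0.47 (9.55 in GlycoHi and 10.02 in GlycoLo, adjusted p = 0.0421), a call lost without any single array except GlycoHi replicate 1 (adjusted p up to 0.159) and with only the 6 arrays compared (adjusted p = 0.0937). Tnni2, a skeletal muscle troponin at a dim probe set, stood at -0.48 (3.55 in GlycoHi and 4.03 in GlycoLo, adjusted p = 0.0199), a call lost when any single GlycoLo array, or GlycoHi 1 or 2, was left out, where the adjusted p reached 0.0796; an offset of 50 on the linear scale brought the difference to -0.10, and the filter on dim probe sets removed this probe set.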

How the results depend on the processing

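Of 480 alternative values of the 30 differences of the 10 genes, 442 kept direction and side of the threshold. Of the rest, 15 lost a call, 17 gained one and 6 changed sign, all 6 in differences that were not called. The lost calls all belong to the 2 called differences. Casq1 in GlycoLo against WT lost its call in 10 of 16 alternatives, and Slc8a1 in GlycoHi against WT in 5 of 16. The replicate block, the 6-array fit, the dim filter, the trended variance and leaving out an array of the third group do not alter a difference. Its direction was therefore fixed in those settings. Of the 10, those called in GlycoLo against WT numbered 1, with 0 under the replicate block or only the 6 arrays compared. In GlycoHi against WT they numbered 1, with 2 under the replicate block, 0 with only the 6 arrays, and 3 with dim probe sets left out, a trended and robust variance or an adjusted p under 0.1. In GlycoHi against GlycoLo they numbered 0, with 3 when dim probe sets were left out and 4 with a trended and robust variance or an adjusted p under 0.1. Leaving out single arrays gave 0 to 1, 0 to 2 and 0 to 1 called genes of the 10 in GlycoLo against WT, GlycoHi against WT and GlycoHi against GlycoLo.

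All probe sets called in GlycoLo against WT numbered 38, and 17 with the replicate block, 15 with 6 arrays, 128 without dim probe sets, 134 with an offset of 50, 256 with a trended and robust variance, 96 at an adjusted p under 0.1 and 13 to 37 without single arrays. In GlycoHi against WT 938 were called, and 502, 1663, 1620, 1875 and 1659 with 6 arrays, without dim probe sets, with the offset, with the trended variance and at 0.1, and 429 to 769 without single arrays. In GlycoHi against GlycoLo 771 were called, and 444, 1299, 1271, 1547 and 1274 under the same settings, and 375 to 651 without single arrays. Whether the replicate numbers mark pairs was not settled by the check made.

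The sign changed in GlycoLo against WT for Atp2a2 (-0.099 to 0.017 without single arrays), Sln (-0.13 to 0.35) and Hrc (-0.038 to 0.054), and in GlycoHi against WT for Pln (-0.0035 to 0.075). Sln relative to Myl7 and Myl4, added after the data were seen, stood at -0.061 in GlycoLo against WT. The causes of these changes were not tested. Ryr2, the dimmest of the 10, lay near the middle of each array's signals, and no detection calls were used.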
